A study of Mus musculus with 4 samples.

Results

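The regulator of G protein signalling (RGS) genes Rgs2, Rgs3, Rgs4, Rgs5, Rgs8, Rgs10, Rgs12, Rgs16, Rgs17 and Rgs19 are described here, 10 of the 55536 rows of a table of RNA sequencing reads per gene. They were taken by symbol, and all 10 symbols were found once. The genes were selected on their levels in these same 4 libraries, by a cut that is not stated. Their levels and differences are therefore given as a description, with no test. The RNA came from the stromal vascular fraction, the cells left when adipocytes are removed from fat tissue, of inguinal white fat of wild type male mice at postnatal day 21. There were 4 libraries, each of a pool of 3 mice: LnF1 with water, LnF1 with 1,3BD, ObF1 with water and ObF1 with 1,3BD. By its title the series is on obesity of the parents. Its labels call the offspring groups LnF1 and ObF1 and the treatment 1,3BD, and do not say how or when 1,3BD was given. Where 4 values are listed without names, LnF1 comes before ObF1 and, within each, water before 1,3BD. With 1 library per combination no group has replicates, so a difference between 2 libraries has no replicate check, and differences between pools of mice cannot be told apart from those of parents or treatment.

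Receptors that couple to heterotrimeric G proteins switch a G alpha subunit from its GDP to its GTP form, which then frees the beta and gamma subunits and acts on enzymes such as adenylyl cyclase and phospholipase C beta. RGS proteins carry a domain that speeds up the hydrolysis of GTP on G alpha and so shortens the signal. The small proteins of the R4 subfamily (Rgs2, Rgs3, Rgs4, Rgs5, Rgs8 and Rgs16) act on Gi and Gq class subunits, Rgs2 with a preference for Gq, and the transcripts of several are known to change quickly with signals to the cell. Rgs17 and Rgs19 belong to the RZ subfamily, and Rgs10 and Rgs12 to the R12 subfamily. In vessels, Rgs5 is a known marker of pericytes.

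The 4 promoter sequences below belong to Rgs2, the member with by far the highest ratio of 1,3BD to water, and to Rgs3, Rgs4 and Rgs8, the 3 members with the lowest mean log2 difference. Each is the 250 bases before a start of transcription in RefSeq (GRCm38.p6), on the strand of the gene and 5′ to 3′. Capitals mark each TGACG on either strand, the core of the cAMP response element, and each TATAAA, the core of the TATA box. Of the 2 starts listed for Rgs3 and the 3 for Rgs8, the one farthest upstream is shown.
Rgs2, chr1:144004150-144004399, minus strand: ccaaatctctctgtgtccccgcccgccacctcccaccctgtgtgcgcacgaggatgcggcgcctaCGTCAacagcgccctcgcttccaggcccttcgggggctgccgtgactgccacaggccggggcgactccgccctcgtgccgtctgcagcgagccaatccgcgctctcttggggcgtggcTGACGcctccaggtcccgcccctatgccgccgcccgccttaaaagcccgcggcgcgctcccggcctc
Rgs3, chr4:62559597-62559846, plus strand: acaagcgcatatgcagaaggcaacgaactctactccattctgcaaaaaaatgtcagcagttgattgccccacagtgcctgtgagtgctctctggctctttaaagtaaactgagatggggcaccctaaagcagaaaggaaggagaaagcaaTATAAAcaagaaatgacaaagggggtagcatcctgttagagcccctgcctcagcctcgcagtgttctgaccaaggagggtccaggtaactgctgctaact
Rgs4, chr1:169747643-169747892, minus strand: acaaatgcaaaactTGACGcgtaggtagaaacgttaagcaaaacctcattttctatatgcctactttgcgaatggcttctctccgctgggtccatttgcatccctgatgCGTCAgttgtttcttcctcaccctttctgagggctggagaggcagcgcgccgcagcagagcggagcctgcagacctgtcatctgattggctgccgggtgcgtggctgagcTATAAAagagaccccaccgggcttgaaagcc
Rgs8, chr1:153652787-153653036, plus strand: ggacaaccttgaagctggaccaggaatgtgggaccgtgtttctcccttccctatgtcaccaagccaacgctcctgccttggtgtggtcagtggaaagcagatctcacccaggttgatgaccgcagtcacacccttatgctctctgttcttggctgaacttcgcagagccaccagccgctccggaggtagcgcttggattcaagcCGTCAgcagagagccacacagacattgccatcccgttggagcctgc

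The Rgs2 window held TGACG at bases 185 to 181 (on the other strand) and 67 to 63 before the start. The Rgs4 window held it at bases 236 to 232 and, on the other strand, 141 to 137, and held TATAAA at bases 31 to 26. The Rgs8 window held TGACG on the other strand at bases 46 to 42, and the Rgs3 window held TATAAA at bases 100 to 95. TGACG lies within the full element TGACGTCA, which was searched as well. Searched on both strands, TGACG occurred in 17.8% of the 32851 windows of this length in the table and in 4 of the 16 windows of members, and TATAAA in 12.4% and in 3 of 16. The full TGACGTCA occurred in 1.55% of all windows and the CArG box of serum response factor in 1.47%, each with 0 of 16 windows of members. Base composition differed: G and C made up 72.4% of the Rgs2 window, against 48.4% for Rgs3, 53.6% for Rgs4 and 57.2% for Rgs8, and a median of 52.4% over all windows. These matches are letters in a window and describe no binding.

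The deposited values are CPM, reads scaled to a common library size, the size being the library total times a scaling factor, and whole reads could be recovered from them. The libraries held between 24586827 and 26000090 recovered reads, and a count of 0 allows up to 3 reads, between 0.108 and 0.130 CPM. Of 9 fibroblast and progenitor genes, Col1a1, Col3a1, Pdgfra and Ly6a were abundant in every library (Pdgfra between 236 and 412 CPM), while Dpp4, Pi16 and Lum were low (Dpp4 at most 0.869 CPM). Their sum was 26816 and 27512 CPM with water and 12830 and 9321 with 1,3BD, with 5 of 9 lower and 1 of 9 higher with 1,3BD in LnF1 and in ObF1. Blood and endothelial cells usually form part of this fraction, but here their markers were low: 8 immune genes summed to between 4.37 and 19.0 CPM, led by Lyz2 and Csf1r with water, 6 endothelial genes summed to between 1.18 and 19.2 CPM, Ptprc was at most 0.150 CPM, and Cd3e, Epcam, Adipoq and Hbb-bs had 0 reads in all 4 libraries. The fat cell gene Plin1 was higher with 1,3BD, at 0.0849, 5.09, 0.0434 and 1.84 CPM. Of the 6 fat cell genes looked at, 2 were higher and 0 lower with 1,3BD in both parental groups. In every library 5 of the 6 were under 1 CPM. The sum of 6 smooth muscle genes was 8498 and 9214 CPM with water and 146 and 217 with 1,3BD, most of it from Acta2 with water (7692 and 8097). Mitochondrial genes took 1.13% and 1.30% of reads with water and 2.78% and 5.80% with 1,3BD (LnF1 first). In what follows, a log2 difference was taken between 2 libraries on log2(CPM + 0.0796), a pseudocount worth 2 reads, which understates the change of genes with few reads. An interval beside a fold is the exact 95% binomial interval of the 2 read counts, which covers counting error only.

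Compared by level per kb of exon, the members were the 10 RGS genes with the highest mean over the 4 libraries, out of 24 RGS and RGS-like genes looked at. Rgs16 was the most abundant member with water, at 32.5 CPM per kb in LnF1 and 57.2 in ObF1. With 1,3BD, Rgs2 stood first at 26.3 and 25.4 CPM per kb, and Rgs16 was next. In LnF1 the counting intervals of both genes overlapped, and in ObF1, where Rgs16 was at 22.5 CPM per kb, they did not. Of the summed level per kb of all members, Rgs2 made up 2.17% (LnF1) and 0.583% (ObF1) with water, against 39.8% and 40.0% with 1,3BD. The sum itself was 66.3 CPM per kb in LnF1 water, 66.1 in LnF1 1,3BD, 96.6 in ObF1 water and 63.7 in ObF1 1,3BD. In LnF1 the make-up of the family thus differed between treatments while its summed level was nearly equal on the deposited scaling. Library totals without scaling factors raise the 1,3BD minus water difference in LnF1 by a median of 0.255 on the log2 scale. The near equality of the sums therefore depends on the scaling.

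**Figure D1:**
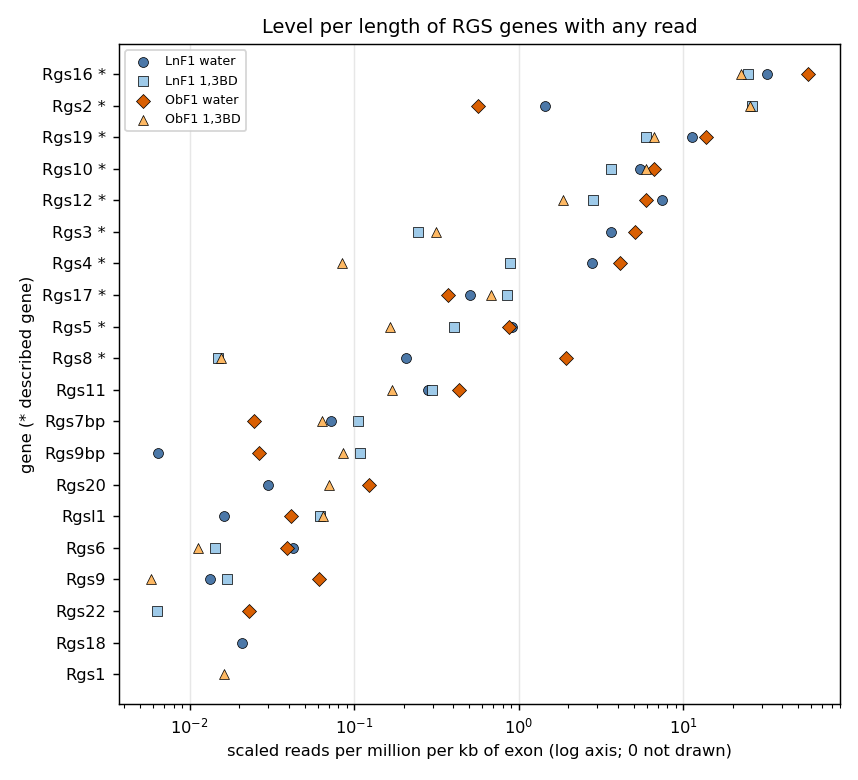
Level per kb of exon (CPM per kb, log axis) of the RGS and RGS-like genes with any read, 1 point per library, ordered by the mean over the 4 libraries. Rgs16 is at the top at 22.5 to 57.2, and Rgs2 has its water points at 0.563 and 1.44, far left of its 1,3BD points at 25.4 and 26.3.

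Below Rgs16 and Rgs2 the order was mostly stable at the top and changed at the bottom. Rgs19 followed at 5.92 to 13.7 CPM per kb. Rgs10 (3.63 to 6.65) and Rgs12 (1.87 to 7.42) came next and changed places between libraries. In ObF1 water the counting intervals of these last 2 overlapped. Rgs8 was the lowest member in LnF1 water, LnF1 1,3BD and ObF1 1,3BD, at 0.207, 0.0149 and 0.0156 CPM per kb, but stood above Rgs5, Rgs2 and Rgs17 in ObF1 water at 1.94. The lowest 4 members in ObF1 1,3BD (Rgs3, Rgs5, Rgs4 and Rgs8) were each within counting error of the next.

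Among the 14 other genes of the family, 1 had at least 1 CPM in at least 2 libraries, which was the minimum for a test. This was Rgs11, of the R7 subfamily, at 1.19 CPM in LnF1 water, 1.26 in LnF1 1,3BD, 1.82 in ObF1 water and 0.712 in ObF1 1,3BD. It did not pass for 1,3BD against water (log2 difference -0.60, SE 0.49, limma adjusted p = 0.344). Rgs7, Rgs13, Rgs14 and Rgs21 had 0 reads in every library, and the other 9 reached at most 0.753 CPM. All 10 members reached the minimum, but Rgs8 did so only through the water libraries, where it was high. It was bound to differ between treatments once it had entered, and counts over the members are read with that in mind.

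Of the members, 5 lie on chromosome 1, in 3 places (GENCODE M21, mm10). Rgs8 (153653025 to 153700323, plus strand) and Rgs16 (153740349 to 153745468, plus strand) are 40.0 kb apart. Rgs5 (169655501 to 169695813, plus strand) and Rgs4 (169741477 to 169747642, minus strand) are 45.7 kb apart. Rgs2 (143999338 to 144004161, minus strand) stands in a row with Rgs13, Rgs1, Rgs21 and Rgs18, the nearest of them 134 kb away. In every library these neighbours of Rgs2 had at most 3 reads, while Rgs2 itself reached 2660 reads. The remaining members are Rgs3 on chromosome 4 (62559847 to 62704001, plus strand), Rgs12 on 5 (34949445 to 35039644, plus strand), Rgs10 on 7 (128373621 to 128418758, minus strand), Rgs17 on 10 (5825663 to 5922400, minus strand) and Rgs19 on 2 (181688419 to 181693977, minus strand). Antisense genes overlap exons of Rgs8, Rgs12 and Rgs16. Those at Rgs8 and Rgs12 had 0 reads, and Gm28513 at Rgs16 reached 0.300 CPM. Rgs3 and Rgs12 are long genes with several starts, and the table gives 1 value per gene, so their isoforms were not separated.

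The series implies 2 comparisons, 1,3BD against water and ObF1 against LnF1. For 1,3BD against water, Rgs2 was much higher and Rgs17 somewhat higher in each parental group, and the other 8 members were lower in each. At least 2-fold in both parental groups, 1 of 10 members was higher, where 7.37% of the 12838 tested genes were, and 5 of 10 were lower (Rgs3, Rgs4, Rgs5, Rgs8 and Rgs12), where 12.6% were. Taken singly, 1 member was 2-fold higher in LnF1 (10.7% of tested genes) and 1 in ObF1 (13.1%), and 5 were 2-fold lower in LnF1 (16.4%) and 7 in ObF1 (19.7%). Because the members were chosen with these values known, nothing is read from these counts. The median difference of the members was -1.05 on the log2 scale in LnF1 and -1.51 in ObF1, beside -0.06 and -0.06 over all tested genes. Library totals without scaling factors shift all genes by 0.25 in this comparison. With them, Rgs10 turned from -0.16 to 0.09 in ObF1 and Rgs5 was no longer 2-fold lower in LnF1 (-0.90), which left 4 members lower in both. In ObF1, Rgs19 was then no longer 2-fold lower (-0.80) and Rgs17 was 2-fold higher (1.09). A pseudocount of 1 CPM also took Rgs5 in LnF1 (-0.87) and Rgs19 in ObF1 (-0.995) under 2-fold. It likewise left 4 members lower in both parental groups. RLE scaling, another way to scale the libraries, put Rgs19 in ObF1 at -0.998.

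**Figure D2:**
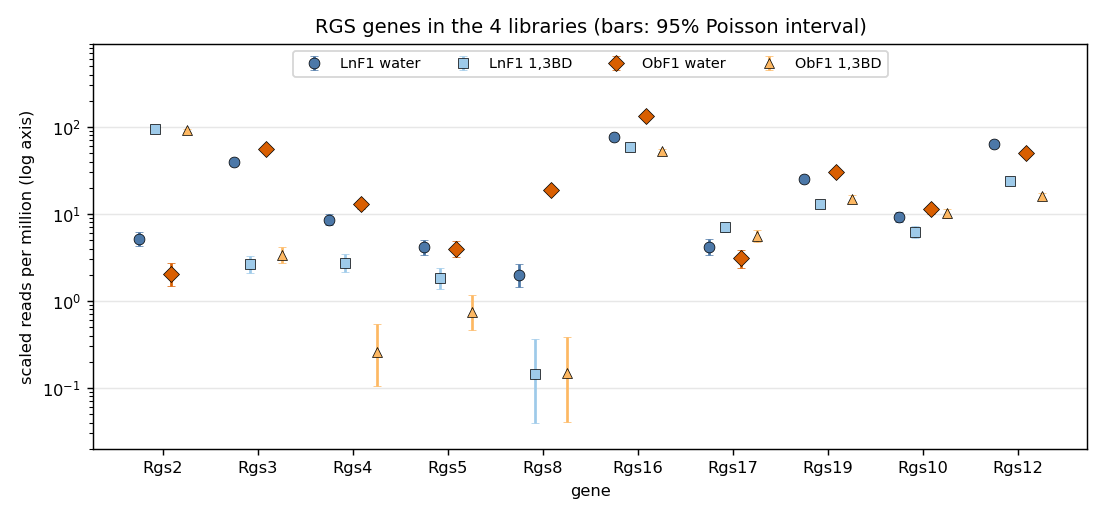
CPM of each member in each library on a log axis, 1 point per library, with bars for the exact 95% Poisson interval of its reads. Rgs2 is at 92.3 and 95.4 with 1,3BD against 2.04 and 5.22 with water. Rgs8 has 1 high point, ObF1 water at 18.7, and 2 points near 0.150 with 1,3BD.

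Rgs2, which limits Gq signalling and restrains vessel contraction, stood at 5.22 CPM in LnF1 water, 95.4 in LnF1 1,3BD, 2.04 in ObF1 water and 92.3 in ObF1 1,3BD. Both 1,3BD libraries lay far above both water libraries and close to each other. The ratio of 1,3BD to water was 18.3-fold (15.2 to 22.1) in LnF1 and 45.2-fold (33.9 to 61.7) in ObF1. The larger ratio in ObF1 goes with the lower ObF1 water value, from 47 reads against 123 in LnF1 water, while the 1,3BD values were 2461 and 2660 reads.

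Rgs3, which acts on Gi and Gq subunits, stood at 39.4 CPM in LnF1 water, 2.65 in LnF1 1,3BD, 55.2 in ObF1 water and 3.41 in ObF1 1,3BD. The water libraries were high and the 1,3BD libraries low, with a nearly equal ratio in both parental groups. Water exceeded 1,3BD 14.9-fold (11.7 to 19.1) in LnF1 and 16.2-fold (13.1 to 20.2) in ObF1, so that Rgs3 lay close to the line of equal differences.

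Rgs4, a regulator of Gi and Gq signalling known from brain and heart, stood at 8.62 CPM in LnF1 water, 2.76 in LnF1 1,3BD, 12.9 in ObF1 water and 0.262 in ObF1 1,3BD. Water was above 1,3BD in both groups, but by unequal amounts. The ratio of water to 1,3BD was 3.12-fold (2.39 to 4.11) in LnF1 and 49.2-fold (23.6 to 123) in ObF1. The ObF1 1,3BD value rests on 7 reads, and on the log2 scale the ObF1 difference was -5.25 with the pseudocount of 2 reads and -3.46 with 1 CPM.

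Rgs5, which marks pericytes, stood at 4.16 CPM in LnF1 water, 1.83 in LnF1 1,3BD, 3.95 in ObF1 water and 0.750 in ObF1 1,3BD. The water values were nearly equal and both were above the 1,3BD values, 2.27-fold (1.61 to 3.26) in LnF1 and 5.27-fold (3.22 to 9.03) in ObF1. Of 10 other mural cell genes, 7 were lower with 1,3BD in both parental groups and 0 higher, and their summed level was 742 and 1018 CPM with water against 257 and 231 with 1,3BD. Pdgfrb, the receptor that defines these cells but is also carried by fibroblasts, gave most of that sum. Mcam (78.4, 7.53, 131 and 2.59 CPM), Cspg4 (1.99, 0.251, 7.95 and 0.0375) and Des (3.91, 0.251, 18.8 and 0.900) were lower with 1,3BD in LnF1 and in ObF1, as Rgs5 was. Abcc9 was lower with 1,3BD in LnF1 but higher in ObF1, at 4.63, 2.47, 1.04 and 1.27 CPM. Higd1b had at most 1 read, Vtn at most 7, and Kcnj8 was measured at 4.07, 1.11, 0.0869 and 0.0750 CPM. Kcnj8 is counted among the 7 lower genes, but it had only 2 reads in each ObF1 library. All 6 smooth muscle genes were lower with 1,3BD in both groups. The part of these markers in the Rgs5 values was not tested, and in bulk RNA fewer cells of a type and less RNA per cell cannot be told apart.

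Rgs8, best known from Purkinje cells of the cerebellum, stood at 1.99 CPM in LnF1 water, 0.143 in LnF1 1,3BD, 18.7 in ObF1 water and 0.150 in ObF1 1,3BD. The ObF1 water library stood alone, and each 1,3BD library held 4 reads. Water exceeded 1,3BD 13.9-fold (5.09 to 53.2) in LnF1 and 125-fold (48.4 to 460) in ObF1. Sox10, a transcription factor that marks Schwann cells, the glia of peripheral nerves, was also highest in that library, at 1.23, 0.574, 8.52 and 0 CPM. Of the other nerve genes given here, Ncam1 was measured at 274, 211, 471 and 309 CPM and Tubb3 at 185, 12.3, 199.9 and 8.02, so both were lower with 1,3BD in LnF1 and in ObF1. The part of these markers in the Rgs8 values was not tested.

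Rgs16, whose transcript is known to respond to many receptors, stood at 76.1 CPM in LnF1 water, 58.5 in LnF1 1,3BD, 134 in ObF1 water and 52.6 in ObF1 1,3BD. Its 1,3BD values were close to each other and the ObF1 water library was the highest. Water exceeded 1,3BD 1.30-fold (1.22 to 1.39) in LnF1 and 2.54-fold (2.39 to 2.71) in ObF1. With library totals without factors the LnF1 difference was -0.12 in place of -0.38 on the log2 scale.

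The RZ members differed in direction. Rgs17 stood at 4.20 CPM in LnF1 water, 7.10 in LnF1 1,3BD, 3.08 in ObF1 water and 5.62 in ObF1 1,3BD, so both 1,3BD libraries were above both water libraries, 1.69-fold (1.32 to 2.17) in LnF1 and 1.82-fold (1.37 to 2.45) in ObF1. Rgs19, also called GAIP for its binding to G alpha i, stood at 25.4 CPM in LnF1 water, 13.2 in LnF1 1,3BD, 30.6 in ObF1 water and 14.8 in ObF1 1,3BD. Water was above 1,3BD 1.93-fold (1.69 to 2.20) in LnF1 and 2.06-fold (1.82 to 2.34) in ObF1.

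Of the R12 members, Rgs12, a large scaffold that also binds Ras proteins, stood at 62.9 CPM in LnF1 water, 24.2 in LnF1 1,3BD, 50.9 in ObF1 water and 15.9 in ObF1 1,3BD. The groups did not overlap, and water exceeded 1,3BD 2.60-fold (2.38 to 2.86) in LnF1 and 3.20-fold (2.86 to 3.58) in ObF1. Rgs10, a small protein best known from microglia and other immune cells, had the smallest difference of the members in ObF1 but not in LnF1, where that of Rgs16 was smaller. It stood at 9.34 CPM in LnF1 water, 6.20 in LnF1 1,3BD, 11.4 in ObF1 water and 10.2 in ObF1 1,3BD. Here the 2 treatments overlapped, since ObF1 1,3BD lay above LnF1 water. The summed level of 8 immune markers was 19.0 and 14.6 CPM with water and 4.37 and 8.66 with 1,3BD. Lyz2 and Csf1r led that sum with water. Of the 8 markers, 2 were lower and 2 higher with 1,3BD in both parental groups. The marker Ptprc stayed at or under 0.150 CPM.

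**Figure D3:**
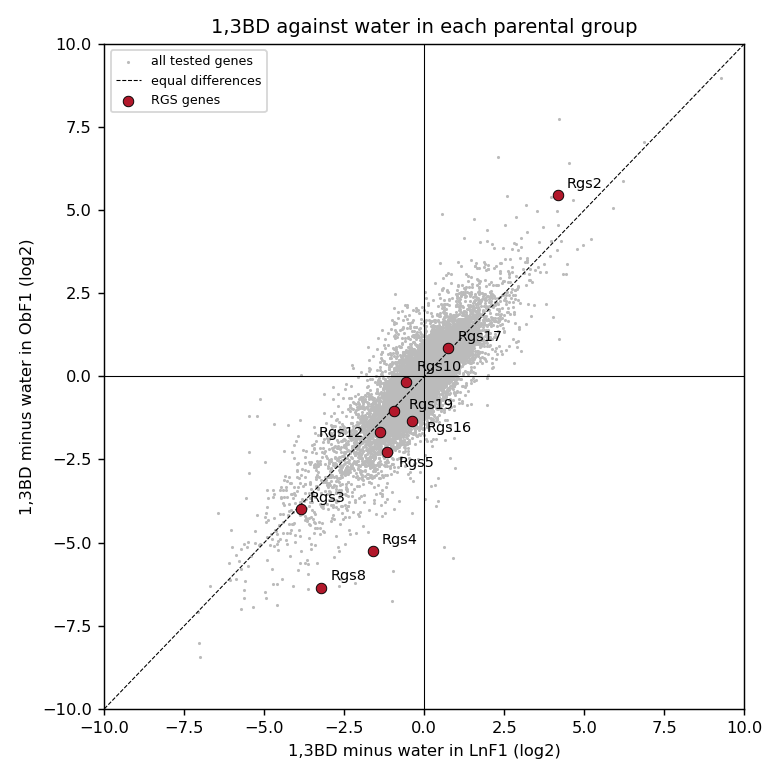
Log2 difference of 1,3BD minus water in LnF1 (horizontal) and ObF1 (vertical) for all 12838 tested genes, with the RGS members in red and a dashed line of equal differences. Rgs3 and Rgs17 lie near the line, while Rgs4 (-1.61 and -5.25) and Rgs8 (-3.22 and -6.36) lie below it.

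Set side by side, Rgs3, Rgs17, Rgs19 and Rgs12 had differences in LnF1 and ObF1 that were within 0.3 of each other on the log2 scale. The ObF1 difference minus the LnF1 difference was -3.63 for Rgs4, -3.14 for Rgs8, -1.13 for Rgs5, -0.97 for Rgs16 and 1.27 for Rgs2. The difference between differences has no error here, since each rests on 4 single libraries.

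For ObF1 against LnF1, no member was at least 2-fold different in the same direction with both water and 1,3BD (0 of 10 higher, where 0.732% of tested genes were, and 0 of 10 lower, where 0.537% were). The member medians were 0.27 with water and -0.10 with 1,3BD, beside 0.00 and 0.02 over all tested genes. Differences of at least 2-fold were seen with 1 treatment only. With water, Rgs8 was 9.39-fold (6.94 to 13.0) higher in ObF1, where 3.04% of tested genes were 2-fold higher, and Rgs2 was 2.56-fold (1.81 to 3.66) lower, where 2.8% were 2-fold lower. With 1,3BD, 0 members were 2-fold higher, where 3.07% of tested genes were. Rgs4 was 10.5-fold (4.87 to 27.0) and Rgs5 2.44-fold (1.43 to 4.32) lower in ObF1, where 4.27% of tested genes were 2-fold lower. The Rgs5 difference was under 2-fold on the log2 scale with a pseudocount of 0.5 CPM (-0.90) or 1 CPM (-0.69).

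The remaining members differed less between parental groups. Rgs16 was 1.76-fold (1.66 to 1.86) higher in ObF1 with water and 1.11-fold (1.03 to 1.19) lower with 1,3BD. Rgs3 was higher in ObF1 1.40-fold with water and 1.29-fold with 1,3BD, Rgs10 1.22-fold and 1.64-fold, and Rgs19 1.20-fold and 1.13-fold. Rgs12 was lower in ObF1 by log2 differences of -0.31 with water and -0.60 with 1,3BD, and Rgs17 by -0.44 and -0.33. Counting intervals for Rgs3 and Rgs19 with 1,3BD, and for Rgs17 with water, included equal levels.

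**Figure D4:**
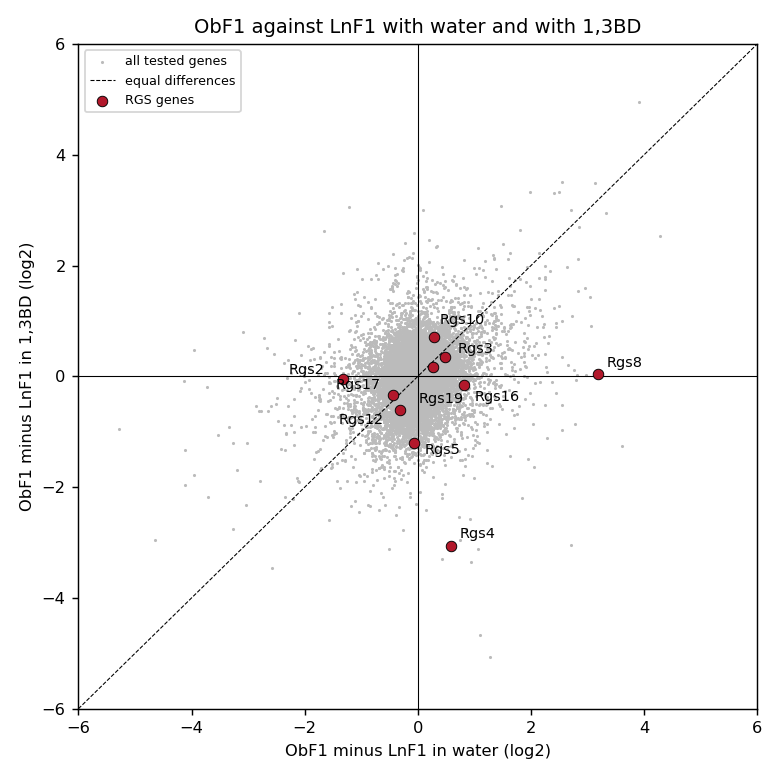
Log2 difference of ObF1 minus LnF1 with water (horizontal) and with 1,3BD (vertical) for all 12838 tested genes, with the RGS members in red. Rgs8 lies far right at 3.18 with 0.04 on the vertical axis, Rgs4 lies low at -3.05 with 0.58 on the horizontal axis, and no member lies beyond 1 on both axes.

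For the 9 members with a mean of at least 5 CPM, which leaves out Rgs5, the genes with the most similar pattern were taken as those with the smallest root mean square distance of log2 values, each centred on its own mean, over the 4 libraries, among 9956 other named genes with a mean of at least 5 CPM. Nearest to Rgs2 were Slc10a6 (distance 0.30), Serpina3n (0.56) and Ism1 (0.58). Slc10a6, a transporter of sulfated steroids, was measured at 2.84, 33.4, 1.17 and 39.0 CPM. No gene was within 0.25 of Rgs2, Rgs4 or Rgs8.

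Nearest to Rgs8 were Ankrd1 (0.33), Ngfr, the low affinity neurotrophin receptor (0.38), and Adamtsl3 (0.57). Ngfr stood at 8.57, 1.29, 59.5 and 0.675 CPM, so that ObF1 water was again the high library. Nearest to Rgs4 were the interferon-induced gene Ifit1 (0.40), CT010467.1 (0.60) and the adrenergic receptor gene Adra1d (0.62). Nearest to Rgs3 were Gbp2 (0.10), the tropomyosin gene Tpm1 (0.11) and Cdc42ep3 (0.13).

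More genes lay near the remaining 5 members compared. For Rgs12 the nearest was Palm (0.0059) with 396 genes within 0.25, for Rgs19 Prkd1 (0.0071) with 759, for Rgs16 Tmcc2 (0.06) with 236, for Rgs17 the clock gene Cry1 (0.03) with 620, and for Rgs10 Tnfrsf23 (0.03) with 807. Gnb1, which encodes a G protein beta subunit, was also near Rgs19 at 0.03. Over 4 libraries such a likeness is a description only.

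Signalling partners and relatives of the members were taken as lists of receptors, G protein subunits, modulators, effectors, cAMP response genes, other proteins with an RGS domain and other RGS genes, and were tested with limma in 1 fit over all 12838 genes. The fit was additive in parental group and treatment and left 1 residual degree of freedom. That residual is the failure of the treatment difference to repeat in the other parental group, moderated over genes. The SEs and p-values therefore do not measure variation between mice. Of 108 tested pathway genes, 22 rose and 45 fell with 1,3BD (limma adjusted p under 0.05), while 19.2% of all tested genes rose and 24.8% fell. Of the 38 called genes named by rule, 22 lost the call when some library was left out: 20 without LnF1 water, 15 without ObF1 water, 15 without ObF1 1,3BD and 7 without LnF1 1,3BD. The receptor, G beta and gamma and modulator lists had medians below that of all genes (-0.06), as given for each list here. The lists were written with earlier results of these data known. Nothing is therefore read from their calls and medians against those of all genes.

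Of the 29 tested genes of the receptor list, which includes the atypical receptor gene Ackr3, 18 fell and 4 rose, with a median of -1.20. The smooth muscle markers were lower in the same libraries (6 of 6, with sums of 8498 and 9214 CPM with water and 146 and 217 with 1,3BD), and their part in the falls of receptors, beta and gamma subunits and modulators was not tested. The thromboxane receptor gene Tbxa2r, a Gq-coupled receptor that contracts smooth muscle, fell in LnF1 from 27.6 to 1.11 CPM and in ObF1 from 15.7 to 0.637 (log2 difference -4.50, SE 0.33, limma adjusted p = 2.88e-06). The alpha 1 adrenergic receptor gene Adra1d, also coupled to Gq, fell from 62.2 to 6.89 CPM and from 59.7 to 2.29. The UDP receptor gene P2ry6 fell from 4.92 to 0.359 and from 7.21 to 0.450 CPM. P2ry6 and Adrb3, both counted among the falls, reached 1 CPM only with water. Like Rgs8, they were bound to differ once they had entered the test. F2r, the thrombin receptor and the most abundant in the list, fell from 416 to 205 and from 533 to 245 CPM.

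The 4 receptor genes that rose were Ackr3, Bdkrb2, Ptgfr and Lpar4. Ackr3, an atypical receptor that takes up CXCL12, rose in LnF1 from 19.1 to 43.4 CPM and in ObF1 from 25.3 to 84.1 (log2 1.45). Bdkrb2, the bradykinin receptor, had a log2 difference of 1.50 in limma (adjusted p = 0.0192) but did not pass in DESeq2 (adjusted p = 0.0614). Lpar1, the second most abundant receptor, did not pass (log2 0.33, limma adjusted p = 0.200).

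G alpha subunits were split, with 2 of 11 higher, 3 lower and a median of -0.00. Gnai2, the most abundant Gi subunit and a substrate of most RGS proteins, fell in LnF1 from 738 to 190 CPM and in ObF1 from 653 to 208 (log2 -1.80, SE 0.20, limma adjusted p = 5.96e-05). Its relative Gnai3 was measured at 177, 179, 169 and 168 CPM and did not pass (limma adjusted p = 0.997). Gnao1 (log2 0.96) and Gnal (1.17) rose from low levels, but Gnal did not pass in DESeq2 (adjusted p = 0.124). Gna11 (-0.70) and the imprinted gene Gnas (-1.14) fell, Gna11 with no call with library totals (limma adjusted p = 0.0857) and Gnas with no call without the parental group in the fit (limma adjusted p = 0.386) and a difference of 0.025 without LnF1 water.

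Beta and gamma subunits fell in 7 of 11 and rose in 0, with a median of -1.05 (0 higher also at an unadjusted p under 0.05 in limma). Gnb1 fell in LnF1 from 457 to 231 CPM and in ObF1 from 542 to 254. Gnb4 (log2 -2.38), Gng8 (-2.72) and Gngt2 (-1.86) had the largest falls by rule. Gngt2 had no call in DESeq2 (adjusted p = 0.0706). It reached 1 CPM only with water, so it was bound to differ once it had entered the test. The abundant Gng12 did not pass (-0.20, limma adjusted p = 0.441). Among 7 other modulators of G alpha, 4 fell and 1 rose: Gpsm3 (-2.10) and Gpsm1 (-1.31), which hold G alpha in its GDP form, Rap1gap (-2.18) and Ric8a (-0.86) fell, and Ccdc88a (0.58, limma adjusted p = 0.0467) rose. Ccdc88a lost the call in DESeq2 and with 4 other settings, among them a pseudocount of 0.5 CPM (limma adjusted p = 0.0504).

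**Figure D5:**
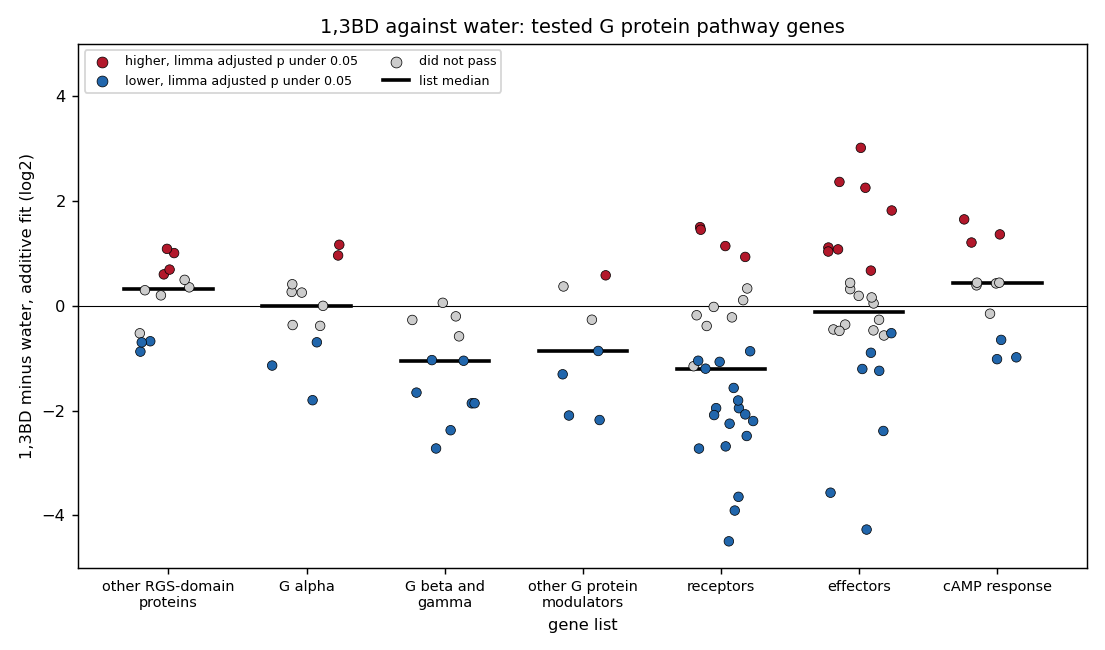
Log2 difference of 1,3BD minus water in the additive fit for each tested gene of 7 lists, coloured by the limma call, with a bar at each list's median. Receptors have 18 of 29 points called lower and beta and gamma subunits 7 of 11, while effectors have 8 of 26 higher and 7 lower.

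Of 12 tested genes for other proteins with an RGS domain, 4 rose and 3 fell, with a median of 0.32. Grk5, a kinase that turns off active receptors, rose in LnF1 from 45.8 to 112 CPM and in ObF1 from 88.5 to 146 (log2 1.01, limma adjusted p = 0.00303), while its relatives Grk2 (-0.68, adjusted p = 0.0261 in limma) and Grk6 (-0.88, adjusted p = 0.0262 in limma) fell. Both falls ended with library totals without factors, at adjusted p = 0.131 and 0.0876 in limma. Snx14 (1.09) and Arhgef12 (0.69), an exchange factor driven by G alpha 12 and 13, rose. These rises varied when 1 library was left out. Grk5 then ranged from 0.53 to 1.48, Arhgef12 from 0.52 to 0.87 and Snx14 from 0.74 to 1.43.

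Effectors were split, with 8 of 26 higher, 7 lower and a median of -0.11. The phosphodiesterase gene Pde4d, which breaks down cAMP, rose in LnF1 from 29.5 to 197 CPM and in ObF1 from 20.8 to 204 (log2 3.02, SE 0.21, limma adjusted p = 2.58e-06), and Pde3b rose by 2.25. Plcb1, a phospholipase C beta that Gq activates, rose from 3.35 to 23.9 and from 6.82 to 26.2 CPM (2.37). The more abundant Plcb3 (-0.57, limma adjusted p = 0.0607) and Plcb4 (-0.45, limma adjusted p = 0.108) did not pass. The adenylyl cyclase genes moved in both directions: Adcy1 (-4.27) and Adcy7 (-3.57) fell, while Adcy2 (1.82), Adcy5 (1.11) and Adcy9 (1.08) rose. Itpr3, a calcium release channel, fell (-2.39).

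Of 11 genes known to respond to cAMP, or to carry the response, 3 rose and 3 fell, with a median of 0.43. Pde10a (1.65), Per1 (1.36) and Crem (1.21) rose, and Fos (-0.98), Nr4a1 (-0.65) and Nr4a3 (-1.02) fell. Nr4a3 did not pass in edgeR (adjusted p = 0.0624) or DESeq2 (adjusted p = 0.0649), and Nr4a1 did not pass in limma with library totals (adjusted p = 0.110). Rgs2 itself is often counted with such genes, and its values are given above.

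For ObF1 against LnF1, 1 of the 108 pathway genes rose and 0 fell in limma (13 higher and 12 lower at an unadjusted p under 0.05), while 0.195% of all tested genes rose and 0.101% fell. The 1 gene was Adcyap1r1, the receptor of the neuropeptide PACAP, at 4.63 against 33.5 CPM with water and 1.18 against 5.44 with 1,3BD (log2 2.48, limma adjusted p = 0.00763). It was put in the list with its value known, and limma called 0 genes higher, this one included, without the treatment in the fit or with any 1 library left out. edgeR also called 1 higher and 0 lower, and DESeq2 called 1 higher and 3 lower (Gnas, Ptgfr and S1pr3). Like Rgs8, Adcyap1r1 had its highest value in ObF1 water.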

How the data were processed

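RNA was measured in 4 libraries, each a pool of 3 mice. TRIzol was used for extraction and a KAPA mRNA HyperPrep kit for library construction, per the labels' protocols. Per the submitters' processing notes, mm10, edgeR and DESeq2 were used, without role or version. The sources used here name no aligner, counter, annotation or strand setting. The values deposited by the authors are a scaled signal: 100% were whole multiples of the smallest value in their column within a relative tolerance of 1e-06, so whole reads were recovered and the unit is called CPM. The 2 columns that name no treatment were matched to water.

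The 12838 genes reaching 1 CPM in 2 or more libraries were fitted with limma 3.58.1 on log2(CPM + 0.0796) with trend and robust moderation, additive in parental group and treatment, with Benjamini-Hochberg adjustment and a threshold of 0.05. The test was checked on simulated data. edgeR 4.0.16 and DESeq2 1.42.0 on recovered reads were alternatives, with other pseudocounts, filters and scalings. Exon lengths come from GENCODE M21 and promoters from RefSeq (GRCm38.p6, 10 of 10 members matched). From each pathway list, the rule named the 2 most abundant genes and, per direction, up to 3 genes that moved the same way in LnF1 and ObF1, ranked by the smaller of both differences. Other named genes were chosen after their values were seen. Of the listed symbols, Icer matched no row. The members and lists were chosen with earlier results of these data known. Some nerve and glia markers are not reported here.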

Additional observations from a re-analysis of the deposited data

Results flagged for a closer look

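Rgs4 and Rgs16 differed between ObF1 and LnF1 in opposite directions with water and with 1,3BD. For Rgs4, ObF1 minus LnF1 was 0.58 on the log2 scale with water and -3.05 with 1,3BD, the second from 7 reads against 77. For Rgs16 it was 0.81 with water and -0.15 with 1,3BD. Each direction rests on 1 library per group, and the difference between the treatments was not tested.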

How the results depend on the processing

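With 1 library per combination, differences between mice were not measured, and low counts limit Rgs4 and Rgs8 with 1,3BD. For 1,3BD against water, 2466 genes were higher and 3189 lower. Leaving out 1 library, which drops the parental group from the fit, gave 668 to 1926 higher and 1232 to 2731 lower, with 668 and 1232 without LnF1 water, 817 and 1326 without ObF1 water and 1004 and 1739 without ObF1 1,3BD. Library totals without factors gave 3663 higher and 2283 lower, a share of higher calls of 61.6% in place of 43.6%. For ObF1 against LnF1, 25 were higher and 13 lower. DESeq2 gave 69 and 48, no filter 196 and 156, a pseudocount of 0.5 CPM 11 and 5, a pseudocount of 1 CPM 8 and 5, a mean of at least 5 CPM 10 and 5, and library totals 16 higher. Without the treatment in the fit, 0 were higher and 0 lower in limma (24 and 15 at an unadjusted p under 0.05), and leaving out 1 library gave 0 higher and 0 to 2 lower. Genes at least 2-fold higher with 1,3BD in both parental groups numbered 946, 1540 with library totals and 606 at a mean of at least 5 CPM. Those higher in ObF1 with both treatments numbered 94, and 52, 33 and 45 with a pseudocount of 0.5 CPM, of 1 CPM and at a mean of at least 5 CPM. Those lower in ObF1 numbered 69, and 39, 23 and 28. The cause of these changes was not tested. The filter at a mean of at least 5 CPM admitted 10238 genes in place of 12838, and the part of this in the lower counts was not tested either. The Gnas difference for 1,3BD against water was -1.14, and 0.0250 without LnF1 water and -2.31 without ObF1 water. Of 160 member values under other pseudocounts and scalings, 138 stayed within the counting interval. The sign changed in 2, Rgs8 for ObF1 against LnF1 with 1,3BD (0.04 to -0.03) and Rgs10 for 1,3BD against water in ObF1 (-0.16 to 0.09), both with library totals. No paired analysis was possible because the labels give no replicate numbers and each combination has 1 library.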
